A study of Mus musculus with 6 samples.

Results

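The hypoxia-inducible factor (HIF) pathway and the vascular endothelial growth factor (VEGF) signal that it controls were examined here through 10 genes in mouse testis. The genes were taken by symbol: Hif1a, Epas1, Arnt, Egln1, Egln2, Egln3, Vhl, Vegfa, Kdr and Flt1. All 10 were found among the 45777 genes of the deposited table, and all 10 passed the filter on low counts, which kept 25073 genes. Total RNA was sequenced from testes of mice labelled WT, 3 libraries from ethanol-fed mice and 3 from control-fed mice. The ethanol or control diet, 10 ml of LDC liquid diet a day per mouse, was given for 16 weeks, after 5 days of acclimatization on the control LDC diet. Strain and age of the mice were not given in the sources used here. The comparison asks what chronic ethanol intake does to testis gene expression.

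The 6 libraries held 38935654 to 47420249 counted reads each. Genes of late germ cells were abundant, as the tissue label has it: 6 spermatid markers summed to 9990.2 to 12717 CPM in the ethanol libraries, against 10008.5 to 12240.7 CPM in controls. CPM is a read count relative to library size, with TMM scaling between libraries. Spermatogonial markers, 6 genes, summed to 65.4 to 71.4 CPM with ethanol, against 66.3 to 77.3 CPM in controls.

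In cells with enough oxygen, prolyl hydroxylases of the EGLN family mark the HIF alpha subunits, and the von Hippel-Lindau protein then leads them to degradation. When oxygen is low, the alpha subunits escape this mark, pair with ARNT and bind short DNA elements with a core of ACGTG or GCGTG near their target genes. Vegfa is one of the best known targets. Its product binds the receptors KDR and FLT1 on endothelial cells and drives the growth of vessels. Control of the alpha subunits acts mainly on the protein, so transcript levels do not measure HIF activity. In the testis, vessels run in the interstitial tissue between the seminiferous tubules, and none enter the tubules, where the germ cells develop.

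Promoter windows from RefSeq (GRCm38.p6, the mm10 assembly; 250 bases before to 50 after a transcription start) were found for 9 of the 10 genes, 11 windows in all. They are shown for the gene with the largest transcript level, Egln2, and for Vegfa and Hif1a, whose values are described below. Each sequence runs 5′ to 3′ on the gene's strand. Capitals mark a match to ACGTG or GCGTG on either strand, and matches that share bases were counted as 1 place.
Egln2, chr7:27166753-27167052, minus strand: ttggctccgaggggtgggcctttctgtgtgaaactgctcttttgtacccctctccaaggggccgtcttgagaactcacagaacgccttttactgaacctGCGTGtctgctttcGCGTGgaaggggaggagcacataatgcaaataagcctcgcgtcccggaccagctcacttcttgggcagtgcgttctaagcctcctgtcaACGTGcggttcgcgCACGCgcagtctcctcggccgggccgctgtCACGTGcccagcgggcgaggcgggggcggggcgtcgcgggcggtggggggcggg
Hif1a, chr12:73907617-73907916, plus strand: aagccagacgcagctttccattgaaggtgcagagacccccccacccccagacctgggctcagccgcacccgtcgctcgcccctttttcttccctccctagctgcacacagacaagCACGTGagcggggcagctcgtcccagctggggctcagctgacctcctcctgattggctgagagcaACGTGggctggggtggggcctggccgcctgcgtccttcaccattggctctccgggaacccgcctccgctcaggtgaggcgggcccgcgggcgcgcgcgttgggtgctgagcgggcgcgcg
Vegfa, chr17:46032328-46032627, minus strand: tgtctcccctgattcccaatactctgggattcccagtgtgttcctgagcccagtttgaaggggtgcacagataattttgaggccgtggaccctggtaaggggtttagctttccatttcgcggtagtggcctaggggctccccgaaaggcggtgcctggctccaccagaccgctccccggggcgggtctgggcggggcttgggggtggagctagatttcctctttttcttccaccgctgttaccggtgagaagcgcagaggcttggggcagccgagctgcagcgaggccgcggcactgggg
The Egln2 window held a core at 5 places and the Hif1a window at 2, one of which in each is CACGTG and reads as ACGTG on both strands. The first Vegfa window held 0, so these letters are not within that window. Its second window, at chr17:46025114-46025413, held 2. A core was present in 9 of the 11 windows, against 43.8% of all 32851 windows in the same table. Both cores hold the letters CG, and the 11 windows were 49.3% to 86.0% G or C. The share over all windows was not matched for this, so no excess is read from it. At least 3 places were found in 6.43% of all windows. A match is a description of the letters and not evidence of binding.

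**Figure D1:**
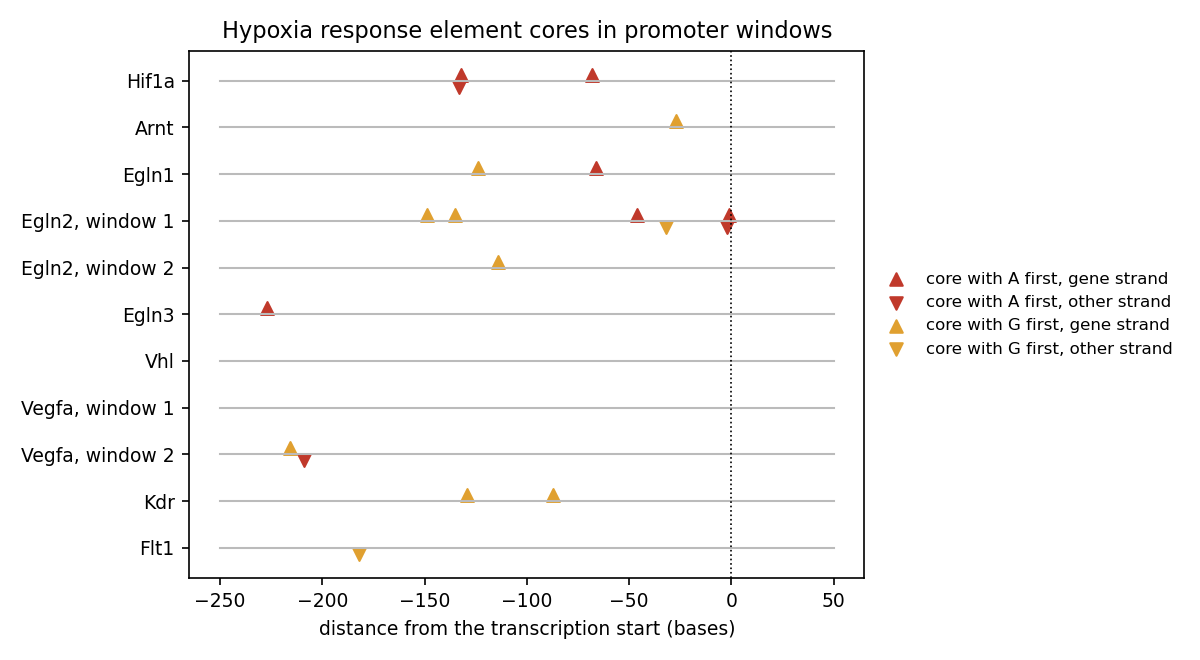
Places of the core ACGTG (red) and GCGTG (orange) in the promoter windows of 9 genes; the x axis gives the distance in bases from the transcription start, upward triangles are matches on the gene's strand and downward triangles on the other strand. The first Egln2 window holds a core at 5 places, while the Vhl window and the first Vegfa window hold 0.

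The 10 genes spanned a wide range of transcript levels, with a hydroxylase at each end. On the TPM scale, which corrects for transcript length, Egln2 had a mean of 411.8 TPM over the 6 libraries and Egln3 a mean of 0.226 TPM. Vhl followed Egln2 at 80.7 TPM and Hif1a came next at 15.2 TPM. Below these stood Arnt at 8.19, Epas1 at 7.30 and Egln1 at 5.06 TPM, and the ranges over libraries of Arnt and Epas1, and of Epas1 and Egln1, overlapped. Kdr at 2.07, Vegfa at 1.67 and Flt1 at 1.64 TPM overlapped as neighbours, so that their order is not settled by these libraries. Every other pair of neighbours was separate in TPM over the 6 libraries. Relative spread was smallest for Vhl, at a coefficient of variation of 5.49% over the 6 libraries, and was 26.9% for Vegfa and 32.2% for Egln3.

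**Figure D2:**
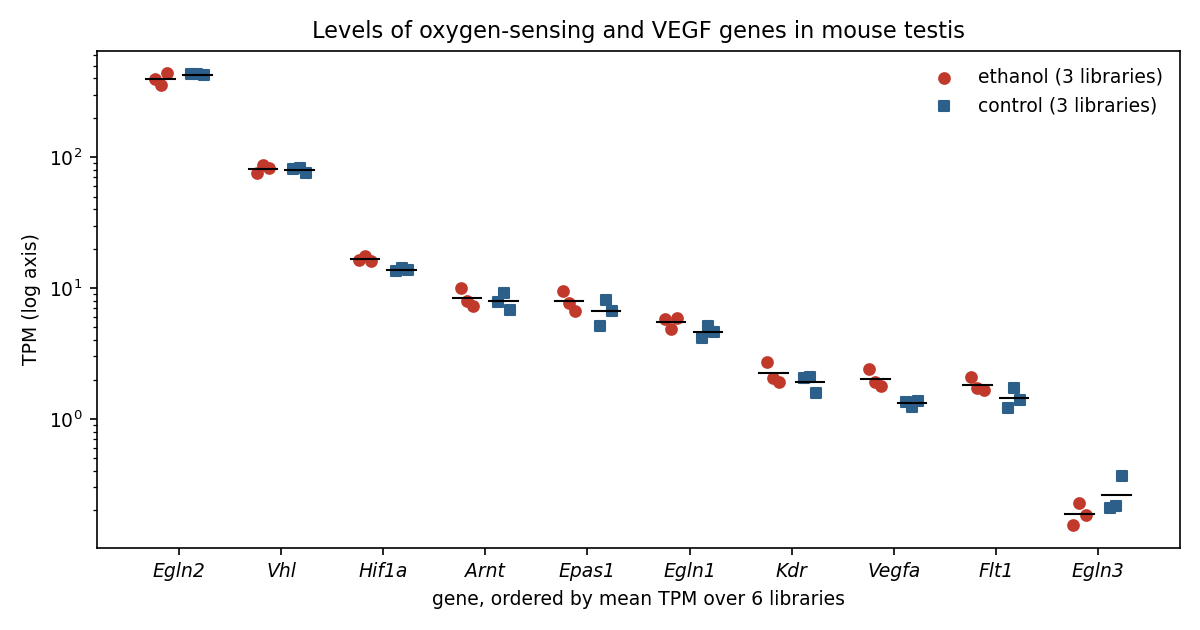
TPM of each gene in the 3 ethanol libraries (red circles) and the 3 control libraries (blue squares) on a log axis, with genes ordered by mean TPM over 6 libraries; black lines are the mean of each diet. The lowest Egln2 value is 356.8 TPM and the highest Egln3 value 0.365 TPM.

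Between the diets, no gene of the pathway passed the test over all genes. At a Benjamini-Hochberg adjusted p of 0.05, the quasi-likelihood test of edgeR called 0 of the 10 genes and 0 of the 25073 genes tested (0.0%). The lowest edgeR adjusted p of all genes was 0.0515. DESeq2 called 330 genes (1.81% of the genes it gave an adjusted p) and limma-voom 5 (0.0199%). Limma-voom called 0 of the 10 and DESeq2 0 of the 9 to which it gave an adjusted p; Egln3 had none there. At an unadjusted edgeR p under 0.05 stood 2 of the 10, Hif1a and Vegfa, against 13.3% of all tested genes. In CPM the 3 ethanol libraries lay above the 3 control libraries for 3 of the 10, Hif1a, Vegfa and Flt1, against 9.76% of all genes. They lay below for 0 of the 10, against 9.01% of all genes, and in either direction 18.8% of all genes were without overlap. The median log2 fold change of the 10 was 0.18 and that of all tested genes 0.0065. With 10 genes, no difference from the background is read from these counts. In bulk tissue, fewer cells of a type and less RNA per cell cannot be told apart.

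Hif1a (Gene ID 15251), which encodes the alpha subunit found in most cell types, was at 37.2, 39.5 and 37.9 CPM in the ethanol libraries, against 32.4, 31.6 and 33.1 CPM in the control libraries. All ethanol libraries were above all controls, by little. On the log2 scale the fold change was 0.24 (SE 0.068, n = 3 per diet; edgeR unadjusted p = 0.00428, adjusted p = 0.187). In TPM the groups were again apart, at 16.6 ± 0.76 with ethanol and 13.8 ± 0.29 in controls (SD, n = 3). With 1 library left out, the log2 fold change of Hif1a ranged from 0.21 to 0.26. Hif1a spans chromosome 12, 73901324 to 73947554 on GRCm38.p6. The promoter window shown above begins inside that span, so the gene has a further start upstream, and the table does not tell transcripts of the starts apart. The last 12831 bases of the gene are shared with the long noncoding RNA Gm15283 on the other strand. Gm15283 had 50, 65 and 71 reads in the ethanol libraries, against 38, 45 and 32 in controls. Hif1a itself had a mean of 1515 reads, and the strand setting of the counting is not given, so reads of the pair cannot be told apart.

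Epas1 (Gene ID 13819) encodes HIF-2 alpha, the alpha subunit typical of endothelial and some interstitial cells, and lies on chromosome 17, 86753864 to 86833410. It was at 24.5, 20.8 and 19.5 CPM in the ethanol libraries, against 14.9, 21.8 and 19.8 CPM in controls. The diets overlapped, and control library 1 was the lowest of the 6. The log2 fold change was 0.20 (SE 0.13; adjusted p = 0.561 by edgeR), and it was 0.048 without that library, 0.10 without ethanol library 1 and 0.32 without control library 2. Per length, Hif1a took 67.8 ± 3.93% of the summed Hif1a and Epas1 TPM with ethanol and 67.7 ± 4.53% in controls (SD, n = 3). The log2 ratio of Hif1a to Epas1 differed by 0.0023 between the diets (exact two-sided permutation test, p = 1, adjusted over the 6 within-library comparisons computed here p = 1, n = 3 per diet). Its sign turned without ethanol library 2 or 3 or control library 2 or 3, over a range of -0.14 to 0.16 with 1 library left out.

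Arnt (Gene ID 11863) encodes the shared beta partner of both alpha subunits and lies on chromosome 3, 95434367 to 95497240. It was at 20.4, 17.1 and 16.9 CPM in the ethanol libraries, against 17.4, 19.9 and 16.3 CPM in controls. The values were interleaved. Its log2 fold change was 0.022 (SE 0.11, edgeR adjusted p = 0.955), and it was below 0 without ethanol library 1 or control library 1 or 3.

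Among the hydroxylases, Egln2 supplied nearly all of the transcript. Egln2 (Gene ID 112406) encodes the hydroxylase PHD1, which is known for high transcript levels in testis, and spans chromosome 7, 27158658 to 27166802. Its share of the summed Egln1, Egln2 and Egln3 TPM was 98.6 ± 0.061% with ethanol and 98.9 ± 0.11% in controls (SD, n = 3). Egln2 was at 404.8, 394.2 and 502.2 CPM in the ethanol libraries, against 490.4, 457.7 and 498.3 CPM in controls. Ethanol libraries 1 and 2 lay below all controls and ethanol library 3 lay above them. Its log2 fold change was -0.15 (SE 0.086, edgeR adjusted p = 0.476). Without ethanol library 3 it was -0.28 and without ethanol library 2 it was -0.089.

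Egln1 (Gene ID 112405) encodes PHD2, the main HIF hydroxylase of most tissues, on chromosome 8, 124908587 to 124949254. It was at 9.87, 8.78 and 11.2 CPM in the ethanol libraries, against 7.76, 8.99 and 9.05 CPM in controls. Ethanol library 2 lay within the control range. At 0.21, the log2 fold change had an SE of 0.12 and an edgeR adjusted p of 0.494, and it was 0.11 without ethanol library 3 and 0.13 without control library 1. Egln1 holds the long noncoding RNA Gm46060 on the same strand, with 25 to 79 reads per library.

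Egln2 and Egln1 were also set against each other within each library. Egln2 TPM was 68.1, 72.8 and 74.6 times Egln1 TPM in the ethanol libraries, against 104.2, 84.4 and 91.8 times in controls. The ratio was lower in all ethanol libraries than in any control. The log2 ratio differed by -0.38 (exact two-sided permutation test, p = 0.1, adjusted p = 0.3, n = 3 per diet). A p below 0.1 cannot be reached with 3 libraries against 3. With 1 library left out it ranged from -0.45 to -0.29. Of the 4 within-library ratios of paired genes that were computed, this was the only one without overlap between the diets.

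Egln3 (Gene ID 112407) encodes PHD3, a hydroxylase that is itself a HIF target, on chromosome 12, 54178981 to 54203874. It had 8, 14 and 11 reads in the ethanol libraries, against 15, 13 and 24 reads in controls. An exact 95% Poisson interval of counting error ran from 3.45 to 15.8 reads for ethanol library 1 and from 15.4 to 35.7 for control library 3; such intervals cover counting error only. The diets overlapped, and the log2 fold change was -0.56 (SE 0.41; adjusted p = 0.598 by edgeR). Without control library 3 it was -0.22, and on log2(TPM + 1) it was -0.086. The log2 ratio of Egln3 to Egln1 TPM was -4.88 ± 0.42 with ethanol and -4.17 ± 0.47 in controls (SD, n = 3 per diet; exact two-sided permutation test, p = 0.2, adjusted p = 0.4). The difference of -0.71 was -0.45 without control library 3 and ranged to -0.94 with another library left out.

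Vhl (Gene ID 22346) encodes the protein that recognises hydroxylated alpha subunits and lies on chromosome 6, 113623994 to 113631634. It was at 100.9, 121.7 and 124.0 CPM in the ethanol libraries, against 120.0, 113.3 and 116.1 CPM in controls. Ethanol library 1 was the lowest of all and ethanol libraries 2 and 3 were the highest. Its log2 fold change was -0.012 (SE 0.079, edgeR adjusted p = 0.968). The sign turned with total counts alone, at 0.013, on the log2(TPM + 1) scale, at 0.038, without ethanol library 1, at 0.076, and without control library 1.

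**Figure D3:**
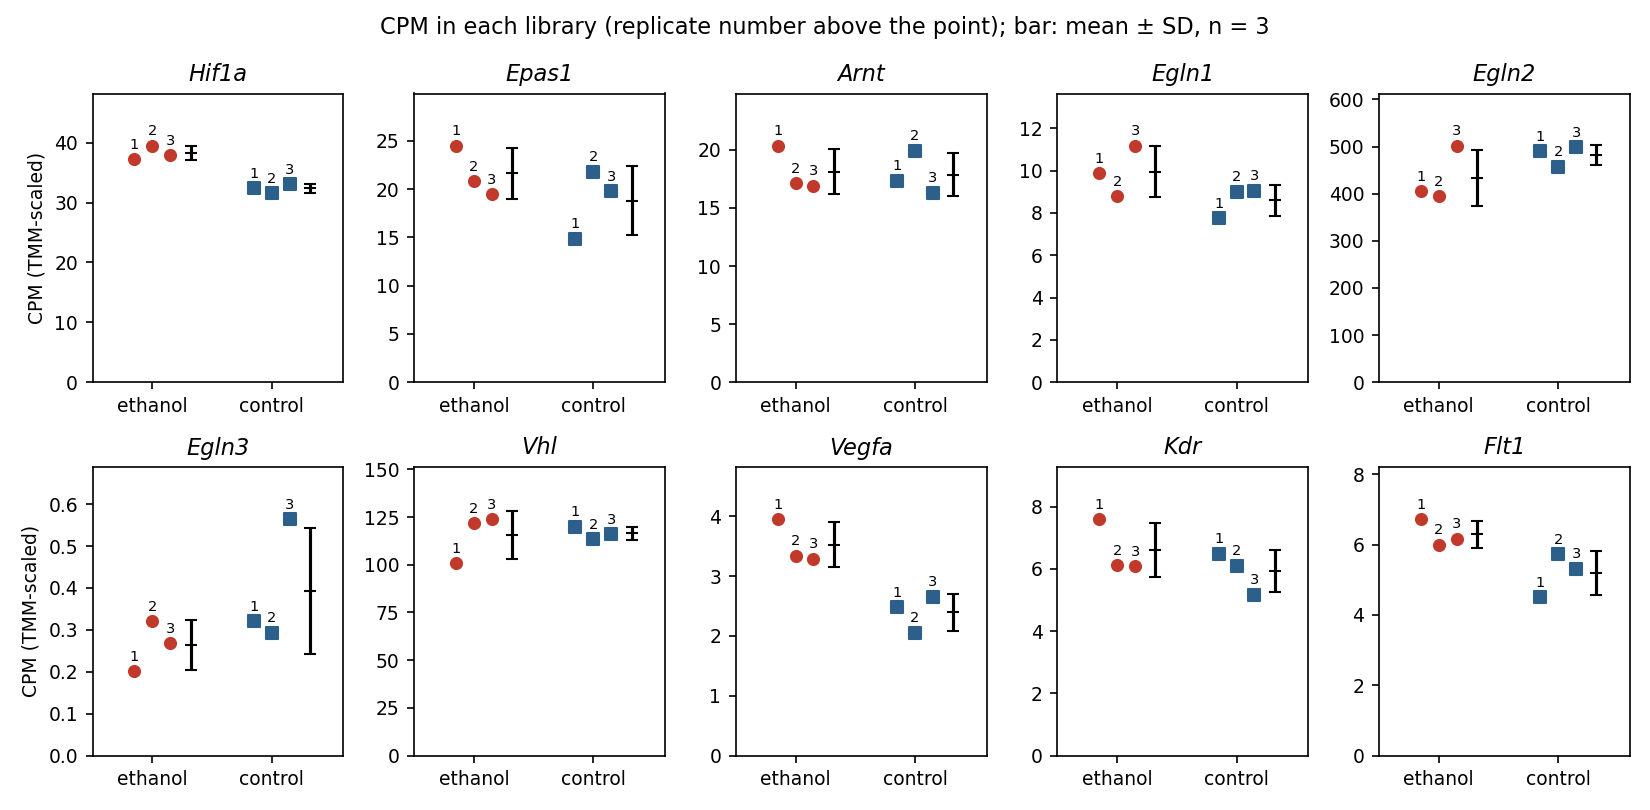
TMM-scaled CPM of each gene in each library, ethanol (red circles) left of control (blue squares), with the replicate number above each point and black bars for the mean ± SD (n = 3). The diets do not overlap for Hif1a, Vegfa and Flt1, and overlap for the other 7 genes.

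Vegfa (Gene ID 22339), the ligand, had the largest positive fold change of the 10. It was at 3.95, 3.34 and 3.29 CPM in the ethanol libraries, against 2.48, 2.05 and 2.66 CPM in controls. Every ethanol library was above every control, and ethanol library 1 was the highest. The fold change was 1.47, a log2 fold change of 0.56 (SE 0.16, n = 3 per diet; edgeR unadjusted p = 0.00508, adjusted p = 0.193). Its rank by p was 660 among all tested genes and that of Hif1a 563. The values rest on 157, 146 and 135 reads in the ethanol libraries and 116, 91 and 113 reads in controls. In TPM Vegfa was at 2.03 ± 0.34 with ethanol and 1.32 ± 0.080 in controls (SD, n = 3). With 1 library left out, the log2 fold change of Vegfa ranged from 0.46 to 0.63. Without ethanol library 1 it was 0.47. The gene spans chromosome 17, 46016993 to 46032377, and its splice forms are counted together.

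Markers of other cell types were read beside these values, and 0 of the markers passed an edgeR adjusted p of 0.05. Of all tested genes, 51.5% had a log2 fold change above 0. Of 7 adipocyte markers, 6 had a log2 fold change above 0, and their summed level was 18.4 to 42.2 CPM in the ethanol libraries, against 12.6 to 20.6 CPM in controls. Ethanol library 1, the highest for Vegfa, held the value of 42.2 CPM. Adipoq was the most abundant adipocyte marker. Without it the sums were 29.0, 8.87 and 5.65 CPM with ethanol, against 3.70, 3.34 and 7.01 CPM in controls, with overlap. The list's median log2 fold change was 1.69. At an unadjusted edgeR p under 0.05 stood 4 of the 7, all higher, against 7.45% higher of all tested genes. Of 10 Sertoli cell markers, 9 were above 0, with 1090.6 to 1226.5 CPM in the ethanol libraries, against 929.0 to 1012.6 CPM in controls. All 6 spermatocyte markers were below 0, with 1192.7 to 1266.1 CPM with ethanol, against 1388.9 to 1437.6 CPM in controls. Of 8 Leydig cell markers, 5 were below 0, with 553.6 to 696.9 CPM with ethanol, against 646.8 to 678.2 CPM in controls. That overlapping sum joins values on both sides: Cyp11a1, which starts steroid synthesis, was at 21.9, 33.1 and 15.5 CPM with ethanol, against 64.8, 67.9 and 41.5 CPM in controls, while Hsd3b6 was at 79.1, 68.2 and 49.2 CPM with ethanol, against 41.0, 46.3 and 46.9 CPM in controls. Of 6 erythroid markers, 5 were above 0, with 56.8 to 69.5 CPM with ethanol, against 28.6 to 44.7 CPM in controls. Of 7 macrophage markers, 6 were above 0, with 103.6 to 111.3 CPM with ethanol, against 89.7 to 96.0 CPM in controls. Of 9 pericyte and smooth muscle markers, 8 were above 0, with 118.0 to 125.9 CPM with ethanol, against 111.1 to 112.5 CPM in controls. Summed levels of these Sertoli, spermatocyte, erythroid, macrophage, and pericyte and smooth muscle lists did not overlap between the diets. Without the most abundant marker of each list, the Sertoli, spermatocyte and erythroid sums still did not overlap. The macrophage sum without Mrc1 was 37.5 to 40.5 CPM with ethanol, against 35.4 to 40.0 CPM in controls, and the macrophage marker C1qa was lower without overlap. The pericyte and smooth muscle sum without Acta2 was 70.2 to 83.6 CPM with ethanol, against 69.5 to 71.7 CPM in controls. That list holds smooth muscle genes, Acta2 among them, which are not particular to vessels. Adipoq, Cyp11a1, Hsd3b6, Mrc1, C1qa and Acta2 were named after their values were seen. No marker of these lists was at 0 in every library. The part of these cell types in the Vegfa and Hif1a values was not tested.

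The receptors stood at similar levels. Flt1 (Gene ID 14254), which binds VEGF-A tightly and also gives a soluble form that holds the ligand away from KDR, lies on chromosome 5, 147561604 to 147726438. It was at 6.72, 5.99 and 6.16 CPM in the ethanol libraries, against 4.51, 5.73 and 5.32 CPM in controls. The diets were apart by a small gap between ethanol library 2 and control library 2. In TPM the same libraries crossed, at 1.72 with ethanol and 1.73 in control. A log2 fold change of 0.28 (SE 0.13) had an edgeR adjusted p of 0.387, and without control library 1 it was 0.18. The long noncoding RNA Gm35383 lies within Flt1 on the other strand, with 172, 166 and 204 reads in the ethanol libraries, against 286, 195 and 263 in controls. Flt1 itself had a mean of 245.5 reads, so an uncertain strand setting bears on its value. Membrane and soluble forms were counted together.

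Kdr (Gene ID 16542) encodes the main signalling receptor of VEGF-A in endothelium and lies on chromosome 5, 75932827 to 75979072. It was at 7.61, 6.13 and 6.09 CPM in the ethanol libraries, against 6.50, 6.11 and 5.17 CPM in controls. The diets overlapped, with ethanol library 1 highest and control library 3 lowest. At 0.16, the log2 fold change (SE 0.14; adjusted p = 0.678 by edgeR) was 0.043 without ethanol library 1 and 0.061 without control library 3. Flt1 TPM was 0.768, 0.830 and 0.869 of Kdr TPM in the ethanol libraries, against 0.594, 0.836 and 0.889 in controls. The log2 ratio differed by 0.11 (exact two-sided permutation test, p = 0.9, adjusted p = 1, n = 3 per diet), and by -0.070 without control library 1.

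Both receptors were set against 18 endothelial markers, of which none was at 0 in every library. Of these, 14 had a log2 fold change above 0, against 51.5% of all tested genes, and the list's median was 0.15. The summed level of the 18 was 71.6 to 86.2 CPM in the ethanol libraries, against 70.1 to 80.5 CPM in controls. The markers were not all on one side. Cdh5, the endothelial cadherin, was at 6.35, 5.60 and 5.26 CPM with ethanol, against 3.53, 4.31 and 4.82 CPM in controls. Pecam1, an endothelial adhesion molecule, was at 3.60, 3.38 and 3.44 CPM with ethanol, against 3.18, 2.64 and 2.68 CPM in controls. Both were without overlap on the higher side, as was Esam, while Emcn, Sox17 and Sox18 were without overlap on the lower side. These are 3 of 18 on each side, against 9.76% higher and 9.01% lower of all genes. In either direction they were 6 of 18, against 18.8% of all genes, and this was not tested. Relative to the mean of the 18 markers on the log2 scale, Flt1 was 0.20 higher with ethanol, without overlap (exact two-sided permutation test, p = 0.1, adjusted p = 0.3, n = 3 per diet); without control library 1 the difference was 0.11. Kdr was 0.075 higher, with overlap (exact permutation p = 0.5, adjusted p = 0.75, n = 3 per diet), and 0.016 higher without control library 3. Each marker weighed the same in the mean of the 18. Plvap among them had 14, 0 and 23 reads with ethanol, against 15, 10 and 11 in controls. The relative value of Flt1 was highest in ethanol library 2, where Plvap had 0 reads, and the part of that marker was not tested. Relative to Pecam1 and Cdh5 alone the differences were -0.088 for Flt1 and -0.22 for Kdr, so that their direction depended on the markers chosen. The part of endothelial content in the receptor values was not tested.

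**Figure D4:**
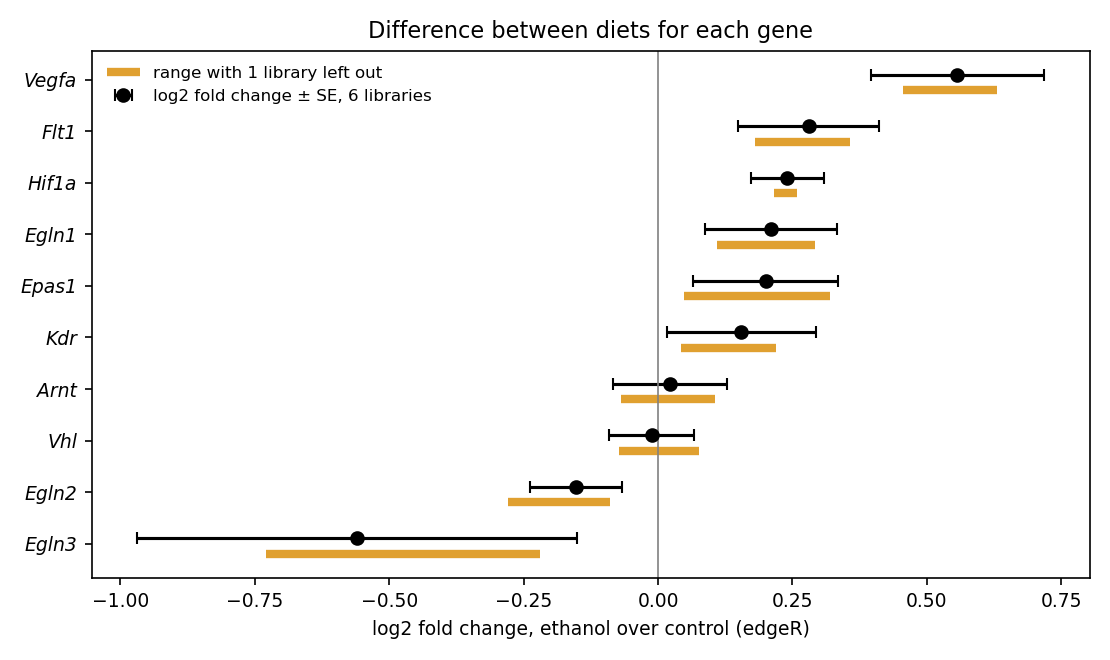
Log2 fold change of each gene, ethanol over control, by edgeR: black points and bars give the value ± SE from 6 libraries, and orange bars the range of values with 1 library left out. Vegfa is highest at 0.56 and Egln3 lowest at -0.56 with the widest bar, and the orange bars of Arnt and Vhl cross 0.

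The wider pathway was read from 3 lists. Among 36 HIF targets, 33 passed the filter and 0 passed an edgeR adjusted p of 0.05. At an unadjusted p under 0.05 there were 5 higher and 0 lower, against 7.45% higher and 5.89% lower of all tested genes. These 5 were 3 without ethanol library 1 or 3, 2 without control library 1 or 3, 3 on log2(TPM + 1) and 2 on log2(TPM + 0.1). The number over all tested genes moved too, from 3343 of 25073 in the main fit. It was 3223 of 25544 without ethanol library 1 and 3360 of 25639 without ethanol library 3. Without control library 1 it was 2371 of 25579, and without control library 3 it was 2539 of 25674. On log2(TPM + 1) it was 2577 of 25073, and on log2(TPM + 0.1) 2566 of 25073. Without overlap in CPM were 5 higher and 1 lower, against 9.76% higher and 9.01% lower of all genes. In either direction these were 6 of 33, near the 18.8% of all genes. The higher side was above its share and the lower side below it, and this split was not tested. The list's median log2 fold change was 0.042, and 21 of 33 were above 0, against 51.5% of all genes. The smallest p belonged to Pdk1, the kinase that holds back pyruvate dehydrogenase. Pdk1 was at 26.4, 27.7 and 29.0 CPM in the ethanol libraries, against 20.6, 21.3 and 20.7 CPM in controls, with a log2 fold change of 0.41 (SE 0.076; adjusted p = 0.127 by edgeR). Pfkfb3, which makes the activator of phosphofructokinase, was at 76.3, 71.7 and 71.0 CPM with ethanol, against 58.2, 56.6 and 61.0 CPM in controls, with a log2 fold change of 0.32 (SE 0.064; adjusted p = 0.145 by edgeR). Both were without overlap between the diets. Hexokinase 2, Hk2, stood at 0.27 (SE 0.11) with overlap, and P4ha1, a collagen prolyl hydroxylase, at 0.20 (SE 0.088) without overlap in CPM. These are log2 fold changes, as are the values without a unit that follow.

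On the lower side of the targets by smallest p were Fam162a at -0.15 (SE 0.081), P4ha2 at -0.22 (SE 0.12), Higd1a at -0.062 (SE 0.071) and Angptl4, an inhibitor of lipoprotein lipase, at -0.16 (SE 0.23). Epo, the kidney hormone of red cell formation, had 0 reads in every library. Car9, a carbonic anhydrase widely used as a hypoxia marker, had 0 reads in all ethanol libraries, against 0, 0 and 5 reads in controls. The abundant glycolytic target Ldha was at 839.7, 907.6 and 965.1 CPM with ethanol, against 963.8, 871.4 and 943.0 CPM in controls, with overlap. Epo, Car9 and Ldha were named after their values were seen.

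Among 14 other genes of the HIF machinery, 0 passed an edgeR adjusted p of 0.05 and 3 had an unadjusted p under 0.05, all lower, against 5.89% lower and 13.3% in either direction of all tested genes. The same 3 were without overlap, against 9.01% of all genes on the lower side and 18.8% in either direction. The number under 0.05 was 6 without ethanol library 3, 5 without control library 2 and 1 without control library 3. Over all tested genes it was 3360 of 25639, 3654 of 25597 and 2539 of 25674 in these settings, in the same order. The list's median log2 fold change was 0.040, with 10 of 14 above 0, against 51.5% of all genes. Siah2, a ubiquitin ligase that targets EGLN hydroxylases, was at 58.9, 60.2 and 66.8 CPM in the ethanol libraries, against 74.1, 71.4 and 75.8 CPM in controls, with a log2 fold change of -0.25 (SE 0.068; adjusted p = 0.179 by edgeR). P4htm, a transmembrane prolyl hydroxylase that can act on HIF alpha, was at 2.77, 1.97 and 2.36 CPM with ethanol, against 2.95, 3.02 and 3.998 CPM in controls. The chaperone Hsp90aa1, which binds HIF alpha, stood at -0.14 (SE 0.058). On the higher side the coactivators Ep300 at 0.23 (SE 0.11) and Crebbp at 0.20 (SE 0.14), Hif3a at 0.37 (SE 0.21) and the elongin Eloc at 0.061 (SE 0.060) all overlapped between the diets. Siah1a was at -0.079 (SE 0.093), also with overlap.

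Among 20 other genes of VEGF and angiopoietin signalling, 0 passed an edgeR adjusted p of 0.05, 10 were above 0 and 10 below. At an unadjusted p under 0.05 stood 2 higher and 1 lower, against 7.45% higher and 5.89% lower of all tested genes, a share near the background. Higher and lower together were 1 without control library 3, 0 without control library 1 and 1 on either TPM scale. Over all tested genes they were 2539 of 25674 without control library 3 and 2371 of 25579 without control library 1. On log2(TPM + 1) and log2(TPM + 0.1) they were 2577 and 2566 of 25073, against 3343 of 25073 in the main fit. Without overlap in CPM were 3 higher and 2 lower, against 9.76% higher and 9.01% lower of all genes, and the median log2 fold change was 0.060. The apelin gene Apln, an endothelial signal, was at 7.86, 8.23 and 3.97 CPM with ethanol, against 9.30, 9.58 and 9.83 CPM in controls, with a log2 fold change of -0.52 (SE 0.21; adjusted p = 0.323 by edgeR). The diets did not overlap, and ethanol library 3 was far below the others. The lymphatic receptor Flt4 stood at 0.19 (SE 0.10) and the coreceptor Nrp2 at 0.20 (SE 0.11), both without overlap. Plcg1, which acts downstream of KDR, at 0.24 (SE 0.10) and Notch1 at 0.23 (SE 0.15) overlapped. On the lower side Angpt2, a ligand of the TEK receptor, stood at -0.33 (SE 0.17), Vegfd at -0.44 (SE 0.27) and Tie1 at -0.29 (SE 0.19), all with overlap.

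**Figure D5:**
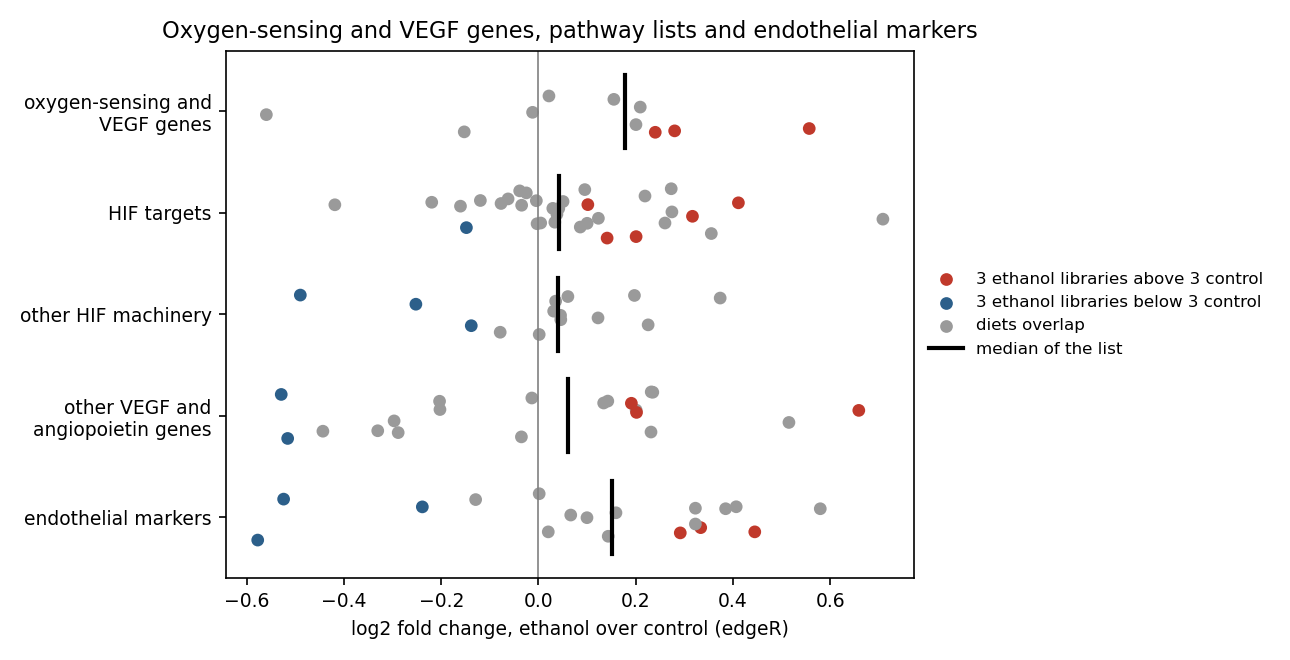
Log2 fold change, ethanol over control, of the 10 genes, of the tested genes of 3 pathway lists and of 18 endothelial markers; each point is a gene, red where the 3 ethanol libraries lie above the 3 controls, blue where they lie below, grey where the diets overlap, and black lines are list medians. The medians run from 0.040 for the other HIF machinery to 0.18 for the 10 genes.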

How the data were processed

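RNA-seq of mouse testis gave 6 libraries, 3 per diet, prepared with a stranded total RNA kit after removal of ribosomal RNA, per the labels' protocols. The submitters' processing notes name HISAT2 and the mm10 build. How reads were assigned to genes, with which annotation and with what regard to strand, was not given in the sources used here. Per the file headers, the deposited table holds raw read counts per gene, and FPKM and TPM computed by the authors. FPKM was not used here. Total counts were 38935654 to 47420249 per library, and there were 0 other sample columns. Each of the 15 pairs of libraries differed by more than sampling noise (chi-square per gene at least 7.66).

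Counts were tested with edgeR 4.0.16 in R 4.3.3 (filterByExpr, TMM, quasi-likelihood F-test, no covariate, Benjamini-Hochberg over all tested genes, threshold 0.05). The procedure was also run on counts simulated without shifts in cell content between libraries. No conclusion about these data is drawn from that run. CPM values are TMM-scaled. The standard error of a log2 fold change is its size over the square root of F. TPM served for levels between genes and for ratios within a library, and endothelial-relative values used log2 CPM with a prior count of 2. Ratios were set against each other in exact permutation tests, two-sided, over the 3 and 3 libraries. The labels do not state whether each library is its own mouse, and a p-value here therefore reflects the spread among these libraries, possibly a technical one. Diet and replicate number were read from the sample titles, and no batch is labelled. Promoter windows and coordinates came from RefSeq tables on GRCm38.p6, 1-based. Ero1a was matched by Gene ID to an older symbol.

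The genes and lists were chosen with earlier results of these data known. All 10 genes were named, and from each of the 3 pathway lists up to 4 genes of smallest p in each direction with a mean of at least 1 CPM. Pecam1 and Cdh5 were named as endothelial markers, and other genes after their values were seen. Alternatives were RLE factors, total counts, no filter, at least 1 CPM in 3 libraries as the filter, limma-voom, limma-trend on log2(TPM + 1) and on log2(TPM + 0.1) (limma 3.58.1), DESeq2 1.42.0, a replicate block, and leaving out each library. Marker lists were read by summed CPM, and, as chosen after seeing the data, without the marker of highest mean CPM.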

Additional observations from a re-analysis of the deposited data

How the results depend on the processing

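Of the 10 genes, 8 kept the sign of their log2 fold change under all of the 15 alternatives that gave a value, and none passed an adjusted p of 0.05 under any of them; Egln3 was removed by the filter of 1 CPM in 3 libraries and had no adjusted p from DESeq2. Hif1a lay between 0.21 and 0.27, and Vegfa between 0.38, on log2(TPM + 1), and 0.63. Vhl turned to 0.013 with total counts alone and to 0.038 on log2(TPM + 1) and log2(TPM + 0.1); with 1 library left out Vhl ranged from -0.073 to 0.076 and Arnt from -0.070 to 0.11. The difference relative to Pecam1 and Cdh5 alone was -0.22 for Kdr and -0.088 for Flt1. With 1 library left out, the log2 ratio difference ranged from -0.070 to 0.22 for Flt1 to Kdr and from -0.14 to 0.16 for Hif1a to Epas1. The causes of these turns were not tested. The count of genes called was 0 by edgeR, 330 by DESeq2, 5 by limma-voom, 2 with the filter of 1 CPM, 15 with the replicate block, and 0 to 3 with 1 library left out. Deviations from diet means of same-numbered libraries correlated at -0.115, 0.0083 and 0.259 across 19534 genes for numbers 1, 2 and 3. Ethanol library 1 correlated best with control library 2. Deviations from a mean of 3 libraries constrain each other, so these values do not settle whether replicate numbers pair the libraries. With the block, 0 of the 10 genes were called. Settings applied to the lists after the data were seen moved the HIF targets with an unadjusted p under 0.05 between 2 and 6, the other HIF machinery between 1 and 6 and the other VEGF and angiopoietin genes between 0 and 4. Over all tested genes the number moved as well, between 2371 of 25579 and 3654 of 25597. Egln3 had the fewest reads, a mean of 14.2 reads per library.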

Other observations

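The noncoding RNAs that lie across the pathway genes were measured beside them. Gm15283, opposite the 3′ part of Hif1a, was at 1.26, 1.49 and 1.73 CPM in the ethanol libraries, against 0.812, 1.01 and 0.753 CPM in controls, without overlap; its log2 fold change was 0.79 (SE 0.23; adjusted p = 0.192 by edgeR). Gm35383, within Flt1, was at 4.33, 3.80 and 4.97 CPM with ethanol, against 6.11, 4.395 and 6.19 CPM in controls, with a value of -0.35 (SE 0.16; adjusted p = 0.39 by edgeR). It thus stood on the lower side while Flt1 stood on the higher side, and the diets overlapped. Gm32727, which shares 1741 bases with Kdr on the other strand, had 11, 37 and 32 reads with ethanol, against 31, 8 and 34 reads in controls. These genes were named after their values were seen.

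Dll4, the Notch ligand of endothelial tip cells, lay below the mean of 1 CPM set for naming and was looked up after its values were seen. It was at 0.957, 1.33 and 0.877 CPM with ethanol, against 0.556, 0.676 and 0.776 CPM in controls, without overlap (log2 fold change 0.66, SE 0.27, edgeR adjusted p = 0.318). Angpt1, a ligand of the TEK receptor, was at 0.478, 0.549 and 0.560 CPM with ethanol, against 0.620, 0.811 and 0.870 CPM in controls, also without overlap (log2 fold change -0.53, SE 0.28, edgeR adjusted p = 0.445). Both rest on at most 58 reads in every library.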
